A study of Caenorhabditis elegans with 9 samples.

Results

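Overactivation of canonical Wnt signaling was compared with its underactivation in C. elegans larvae at the L2/L3 molt, using the deposited values of 6 of the 9 Affymetrix arrays of the series. All 22548 probe sets other than array controls entered the comparison in both directions, and no measured value was used to choose them. They were read as 17118 genes, each by its most brightly read probe set. The 3 overactivation arrays (replicates 1, 3 and 4) came from deIs10;huIs1 animals and the 3 underactivation arrays (replicates 2, 4 and 5) from deIs10;deIs26 animals. Both strains were dpy-20(e1282) unc-30(e191) mutants in their background and carried deIs10, an insertion of FLAG-tagged PAB-1 under a bar-1 enhancer for the vulval precursor cells with unc-30(+) and ajm-1::gfp markers, integrated from 1 selected line. The huIs1 insertion made ΔNTBAR-1, a β-catenin lacking its N-terminal region, and deIs26 made ΔNTPOP-1, a TCF factor that lacks its β-catenin binding domain. Each used the hsp-16.2 heat shock promoter and a dpy-20(+) marker. N2, the wild type, supplied 3 arrays (replicates 2, 3 and 4), which carried none of these insertions and therefore no tagged PAB-1, although their labels too name vulval precursor and seam cells. By the study's methods, animals of all 3 groups, N2 included, were heat shocked once and left to recover briefly before collection.

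PAB-1 binds the poly(A) tail of mRNAs, so that immunoprecipitation of the tagged protein from whole larvae brings down messages mainly from the cells that make it, here the seam cells and the vulval precursor cells (VPCs). The heat shock promoter is not limited to those cells, and cells without the tag therefore received the Wnt manipulation as well. The precipitate is also a bulk sample: more messages per cell, more cells of a type and a better recovery of the tagged cells cannot be told apart in any value below.

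In canonical Wnt signaling a secreted Wnt ligand binds a Frizzled receptor, the Axin, APC, GSK3 and CK1 destruction complex stops marking β-catenin for degradation, and stabilized β-catenin (BAR-1) joins the TCF factor POP-1 to activate transcription. ΔNTBAR-1 escapes degradation and drives the targets without a ligand, while ΔNTPOP-1 occupies the target sites and cannot take up β-catenin. The pathway is known in larvae for its roles in the competence and fates of the VPCs, which form the vulva. The asymmetric divisions of the seam cells, stem-like epidermal cells of the larva, are known to depend on a separate Wnt/β-catenin asymmetry pathway, which also ends in POP-1 but uses other β-catenins. Values are given as deposited, on a log2 scale, so that a difference of 1 is a 2-fold difference, and each difference is overactivation minus underactivation. Tests were limma's moderated test over all 9 arrays, and adjusted p-values were Benjamini-Hochberg values over all 22548 probe sets.

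Array medians lay between 4.72 and 4.92. Over all probe sets, arrays correlated with each other at 0.956 to 0.965 within overactivation, 0.969 to 0.976 within underactivation, and 0.952 to 0.972 between the conditions. The conditions thus overlapped in their general likeness. Underactivation replicate 4 stood closer to N2 (0.951 to 0.973) than underactivation replicates 2 and 5 did (0.936 to 0.949). It correlated with N2 replicate 4 at 0.973, above its 0.971 and 0.969 with the other underactivation arrays. Its probe set for the 5′ end of actin read 11.80, against 10.37 in replicate 2 and 10.09 in replicate 5, with 10.79, 10.40 and 11.20 in overactivation. In N2 this probe set read 12.40, 12.30 and 11.80, so here too replicate 4 was the nearest of the tagged arrays to N2. Results without this array are given below, and the cause of its likeness to N2 was not tested.

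One gene passed the adjusted p of 0.05 with a higher level in overactivation (0.00584% of the 17118 genes) and 0 genes passed it with a lower level (0%). At an adjusted p under 0.1 these counts were 10 and 2. An unadjusted p under 0.05 was reached by 489 genes with a higher level in overactivation (2.86%) and 522 with a lower one (3.05%), together 5.91%, when a threshold of 0.05 alone would pass 5% of genes that did not differ. Differences of at least 1.5-fold were more frequent, with 917 genes higher (5.36%) and 1248 lower (7.29%) in overactivation. The 3 overactivation arrays lay entirely above the 3 underactivation arrays for 1167 genes (6.82%) and entirely below them for 900 (5.26%). Both an unadjusted p under 0.05 and separated arrays were found for 385 genes with a higher level and 425 with a lower level, and the median difference over all genes was 0.034. Without underactivation replicate 4, 301 genes were higher at an unadjusted p under 0.05 and 417 lower. Centring each array on its median shifted the balance of directions: 58.6% of genes with an unadjusted p under 0.05 were then higher, against 48.4% as deposited, with 53.2% against 42.4% of those past 1.5-fold and 76.6% against 56.5% of those with separated arrays. Only dod-23 is therefore described as having risen, and all other genes are given by their values.

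**Figure D1:**
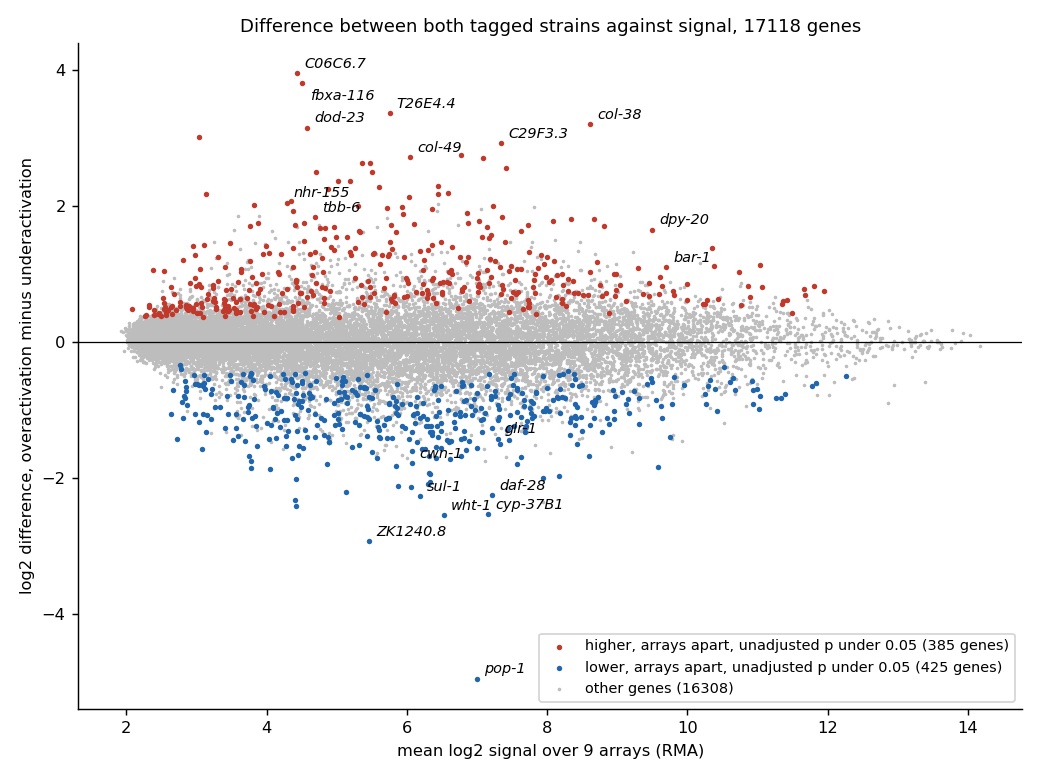
Each gene's log2 difference, overactivation minus underactivation, on the vertical axis, against its mean log2 level over all 9 arrays on the horizontal axis. The 385 genes higher and the 425 genes lower with separated arrays and an unadjusted p under 0.05 are coloured, the other 16308 are grey, and pop-1, at -4.95, lies farthest from 0.

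The inserted genes were read first, since their probe sets detect endogenous and transgene messages together. POP-1 is the TCF factor whose truncated form deIs26 carries, and pop-1 read 5.20, 5.80 and 4.81 in overactivation and 10.29, 11.71 and 8.67 in underactivation, against 5.20, 6.42 and 4.85 in N2. Every underactivation array lay far above the other 6 arrays. The difference of -4.95 (SE 0.72, 31.0-fold lower in overactivation) had an adjusted p of 0.133 by limma, with differences between -5.73 and -4.21 when an array was left out. BAR-1 is the β-catenin of this pathway, and bar-1 read 10.002, 9.64 and 11.75 in overactivation and 9.55, 9.15 and 9.40 in underactivation, with 9.04, 9.55 and 9.18 in N2. Replicate 4 was the brightest of the overactivation arrays by more than 1 log2 unit, and replicates 1 and 3 stood just above the other 2 groups. Its difference was 1.10 (SE 0.48, adjusted p = 0.879 by limma), and 0.46 without overactivation replicate 4.

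The markers were read next. DPY-20, a protein needed for normal body shape, was encoded by the marker of both heat shock insertions, and dpy-20 read 10.47, 11.05 and 11.19 in overactivation and 9.93, 9.15 and 8.67 in underactivation, against 7.47, 8.76 and 8.82 in N2 (1.65, SE 0.44, adjusted p = 0.543 by limma). All overactivation arrays were above all underactivation arrays. ZK792.7 and let-60, its neighbours on chromosome IV, had differences of 1.62 and 0.74, while a further probe set of let-60, the Ras gene, differed by 0.21 with overlapping arrays. ZK792.7 was picked out after its values were seen. UNC-30 is a homeodomain factor of GABA neurons, and unc-30 read 8.22, 7.06 and 8.60 in overactivation and 8.42, 7.26 and 8.68 in underactivation, against 7.63, 5.44 and 7.10 in N2. The tagged arrays overlapped fully between conditions (-0.16, and 0.29 without overactivation replicate 3). AJM-1 is an apical junction protein, and ajm-1 read 10.53, 9.94 and 10.55 in overactivation and 11.03, 10.17 and 10.95 in underactivation, all above the 8.04, 8.50 and 7.53 of N2, with a difference of -0.37 whose sign varied among the further 5 probe sets of the gene, from -1.09 to 0.94. The readings of pab-1 itself overlapped between all 3 groups, with a difference of -0.26.

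**Figure D2:**
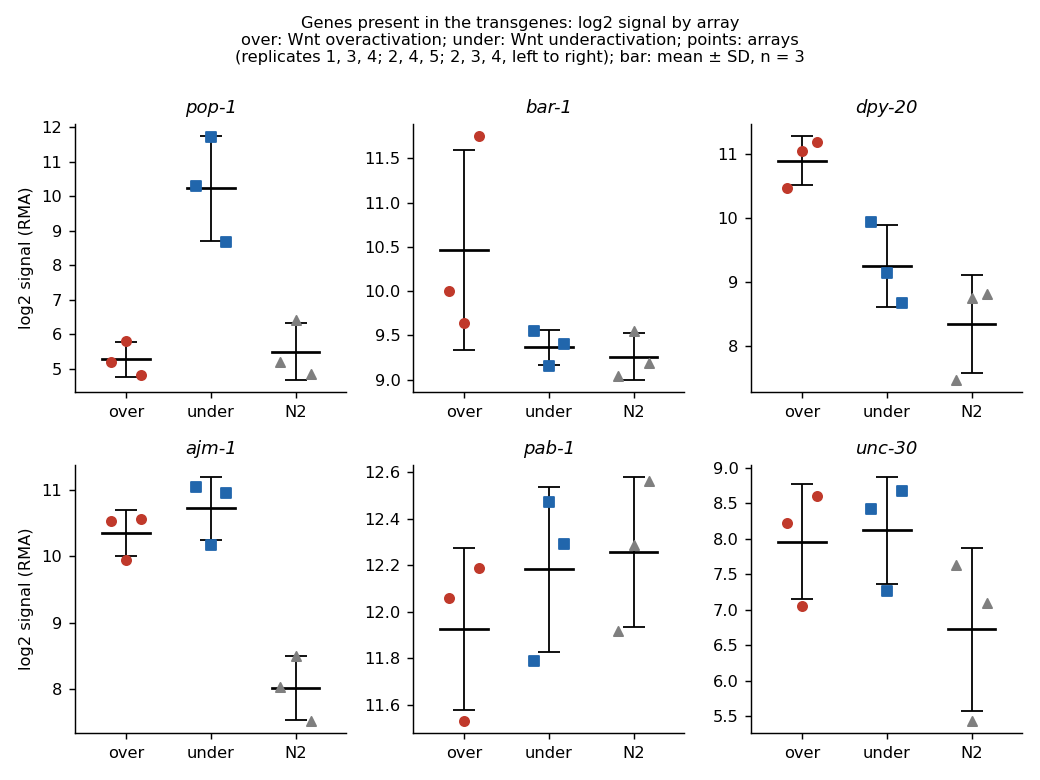
Log2 level of the genes carried by the insertions, with 1 point for each array, overactivation on the left, then underactivation, then N2, and a bar at each group mean with its SD. The 3 underactivation arrays of pop-1 stand apart, between 8.67 and 11.71, and bar-1 is brightest in 1 overactivation array at 11.75.

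The single gene past the adjusted threshold, dod-23, is named for acting downstream of the FOXO factor DAF-16. The study had listed it as a target from these arrays, partly on this ratio, so its direction is not independent evidence. It read 6.82, 7.06 and 6.17 in overactivation and 3.40, 3.54 and 3.67 in underactivation, against 3.44, 3.78 and 3.35 in N2. Thus dod-23 read below the array medians in both other groups and above them in every overactivation array. The rise was 3.15 on the log2 scale (SE 0.25, 95% interval 2.57 to 3.72), or 8.86-fold, with an adjusted p of 0.0170 by limma. Because levels were not tested against background, the size of this fold, over such dim readings, is uncertain. When arrays were left out in turn the difference stayed between 2.96 and 3.41. The call was lost without overactivation replicate 3 (adjusted p = 0.0527), underactivation replicate 2 (0.191), 4 (0.179) or 5 (0.0762), or N2 replicate 2 (0.0595) or 4 (0.0706). No other of the 9 genes of the dod class that were measured was past an unadjusted p of 0.05, and the class had a median difference of 0.46, which was -0.00059 without overactivation replicate 1.

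Several further genes read below the array medians in both other groups and higher in every overactivation array, although srw-92 and 1 array of srw-93 stayed below the medians in overactivation too. C06C6.7 had the largest difference on the higher side, reading 5.96, 7.43 and 8.05 in overactivation, 3.32, 3.31 and 2.95 in underactivation and 3.05, 3.17 and 2.62 in N2 (3.95, SE 0.47, adjusted p = 0.0604 by limma). F-box proteins select targets for ubiquitination, and the F-box gene fbxa-116 read 5.31, 8.14 and 8.35 in overactivation, 3.50, 3.26 and 3.64 in underactivation and 2.64, 3.41 and 2.33 in N2 (3.80). Overactivation replicate 1 was the dimmest of its group for both. Adjacent genes for serpentine chemoreceptors on chromosome I, srw-93 and srw-92, were both higher: srw-93 read 4.03, 5.37 and 5.73 in overactivation, 1.85, 2.25 and 2.02 in underactivation and 2.03, 2.02 and 2.08 in N2 (3.01, adjusted p = 0.0751 by limma). For srw-92 the values were 4.04, 3.88 and 3.66 in overactivation, 2.51, 2.48 and 2.38 in underactivation and 2.61, 2.63 and 2.41 in N2 (1.40, adjusted p = 0.0604). Folds of genes this dim are likewise uncertain in size, and fbxa-116 was also on the study's lists.

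Brighter genes among the largest differences included a pair of cuticle collagens, both listed by the study from these arrays, which form the extracellular coat made by the epidermis. col-38 read 10.40, 11.81 and 10.91 in overactivation, 8.25, 7.47 and 7.81 in underactivation and 6.89, 7.47 and 6.47 in N2, a difference of 3.20 (SE 0.40, 9.16-fold, adjusted p = 0.0691 by limma). col-49 read 7.34, 8.81 and 8.39 in overactivation, 5.90, 4.93 and 5.58 in underactivation and 4.50, 4.84 and 4.13 in N2 (2.71, SE 0.40, adjusted p = 0.145). By their means, underactivation lay between overactivation and N2 for both collagens, and for T26E4.4 (3.36) and tag-164 (2.70), which the study had listed too. F55C5.6 read 6.28, 6.95 and 6.77 in overactivation and 4.63, 3.95 and 4.31 in underactivation (2.37, adjusted p = 0.0563 by limma), with its N2 arrays at 4.70, 4.70 and 4.36 overlapping underactivation. Both of these groups read below the array medians for F55C5.6, so the size of its fold is uncertain too. F25H5.8 differed by 2.49 and F16H6.9 by 1.42.

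In another set of genes N2 lay with overactivation. hrg-7, which encodes a secreted aspartic protease known from heme signaling between tissues, read 8.35, 7.47 and 7.12 in overactivation and 4.14, 5.08 and 5.47 in underactivation, against 9.06, 7.36 and 6.93 in N2 (2.75, SE 0.59, adjusted p = 0.355 by limma). lec-11, a galectin gene, read 9.48, 7.65 and 7.15 in overactivation and 4.78, 5.90 and 5.93 in underactivation, against 9.91, 8.40 and 7.53 in N2 (2.55). For both, the underactivation arrays were the low group of the 3. C40H1.2 (2.08, adjusted p = 0.0563), R10E8.7 (2.63), C29F3.3 (2.92) and sdz-24 (2.63) likewise had N2 means nearer to overactivation. The insulin-like gene ins-7 read 7.22, 6.97 and 5.74 in overactivation and 3.84, 3.46 and 5.15 in underactivation, with 6.78, 5.44 and 4.97 in N2, whose mean lay in between (2.50, SE 0.61).

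Among genes with lower levels in overactivation, wht-1, which encodes an ABC transporter of the White family, had the smallest adjusted p. It read 5.12, 4.60 and 5.60 in overactivation and 7.85, 7.62 and 7.51 in underactivation, against 6.64, 7.19 and 6.61 in N2. The N2 arrays lay between the conditions. The difference was -2.55 (SE 0.28, 5.87-fold lower, adjusted p = 0.0563 by limma), and both further probe sets of wht-1 were lower with separated arrays (-2.60 and -0.88). glr-1, an AMPA-type glutamate receptor gene of interneurons, read 5.86, 6.14 and 6.16 in overactivation and 7.60, 7.56 and 7.27 in underactivation, against 8.38, 8.17 and 8.54 in N2 (-1.42, SE 0.19, adjusted p = 0.0786 by limma). Its other probe set differed by -1.91. N2 was the highest of the 3 groups for glr-1.

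Secreted and signaling products were also found on the lower side. The insulin-like gene daf-28 read 6.42, 5.51 and 4.22 in overactivation and 7.30, 8.96 and 6.65 in underactivation, against 9.06, 8.18 and 8.58 in N2 (-2.26, SE 0.67), the opposite direction to ins-7. sul-1, encoding a sulfatase, read 4.85, 4.76 and 5.01 in overactivation and 7.10, 7.52 and 6.81 in underactivation, against 6.48, 5.70 and 7.44 in N2 (-2.27, SE 0.40). The cytochrome P450 gene cyp-37B1 read 5.19, 5.42 and 5.53 in overactivation and 6.96, 8.89 and 7.88 in underactivation, against 6.82, 8.57 and 9.22 in N2 (-2.53, SE 0.64). Overactivation was the lowest group for each of these 3 genes by its mean. ZK1240.8 (-2.93), F42C5.4 (-2.13), K08E7.6 (-2.10) and the acyltransferase gene oac-14 (-2.06) were likewise lowest in overactivation, and for K08E7.6 a further probe set differed by 0.24 with overlapping arrays.

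For other genes on this side, N2 lay near overactivation and the underactivation arrays were the high group. Among them were pals-6 and pals-38, of a family known from the response to intracellular pathogens. pals-6 read 4.45, 3.39 and 3.34 in overactivation and 5.48, 6.48 and 6.18 in underactivation, against 3.05, 2.96 and 4.35 in N2 (-2.32, SE 0.46), and pals-38 read 3.63, 3.48 and 2.95 in overactivation and 4.77, 5.41 and 5.50 in underactivation, against 3.16, 3.92 and 3.63 in N2 (-1.87, SE 0.29). The family did not move one way: pals-5, the neighbour of pals-6 on chromosome I, differed by 0.52 with separated arrays. Y6E2A.5 (-2.41), T08E11.8 (-2.02) and F07E5.9 (-1.82) shared it. The remaining large differences were -2.22 for the F-box gene fbxa-158, -2.12 for txt-3 and -2.003 for K01D12.1, and Y2H9A.4 differed by -0.96.

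**Figure D3:**
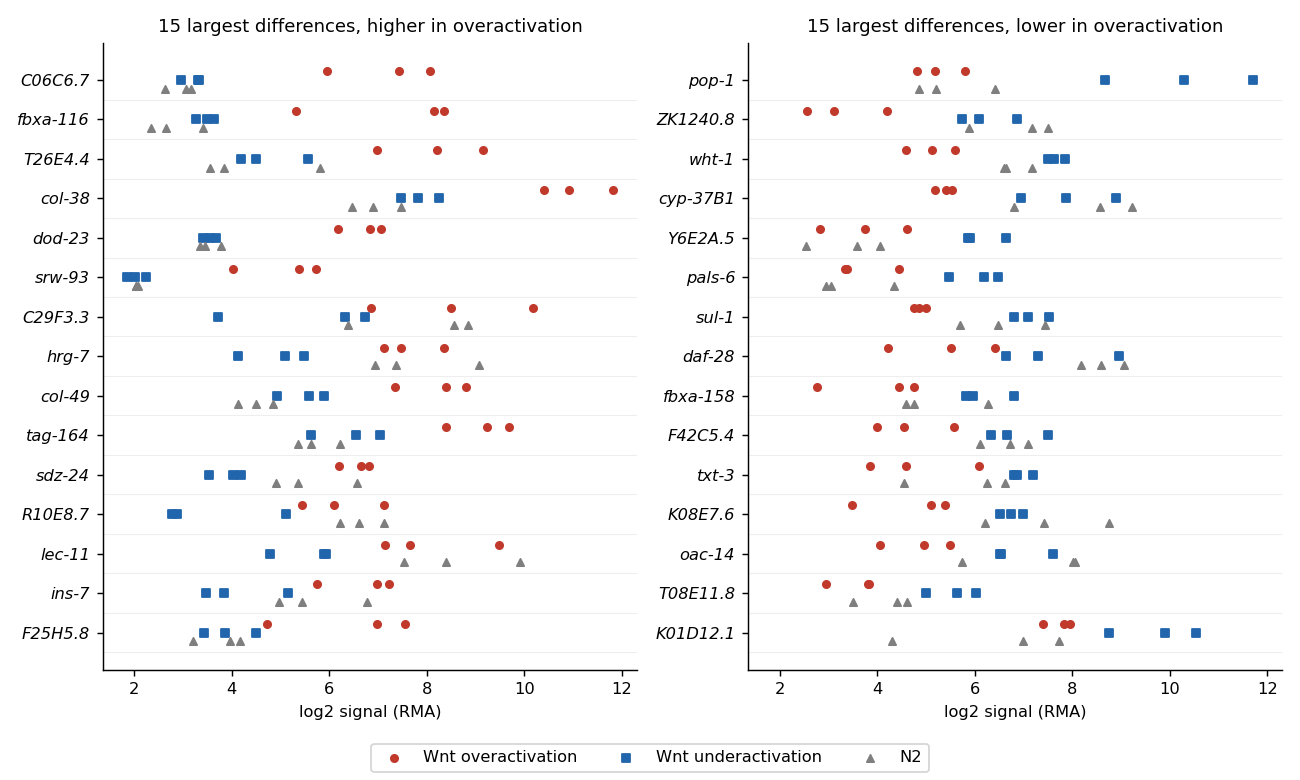
Log2 level in each of the 9 arrays, overactivation, underactivation and N2, for 15 genes on each side, those of largest difference where arrays were separated and the unadjusted p was under 0.05. N2 points fall with underactivation for genes such as dod-23 and with overactivation for genes such as lec-11.

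Of the Wnt pathway's own components, 33 were measured. Without bar-1 and pop-1, 3 of the other 31 were higher at an unadjusted p under 0.05 and 2 lower, against 2.86% and 3.05% of all genes, and the median over the 33 was 0.0065. Without overactivation replicate 4 these counts were 1 and 2, and without underactivation replicate 4 they were 2 and 1. They were 2 and 4 when the probe sets of a gene were averaged, and 1 and 2 with an ordinary linear model. The balance of directions thus depended on the fit. None passed the adjusted threshold. The 26 that passed neither way had differences from -0.86 to 1.06.

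Among the ligands, cwn-1 read 6.26, 5.03 and 3.76 in overactivation and 6.65, 6.77 and 6.99 in underactivation, against 6.12, 6.30 and 6.75 in N2. The underactivation arrays were tight and close to N2, while the overactivation arrays were spread widely below them, and the difference was -1.78 (SE 0.53, adjusted p = 0.649 by limma), and -1.16 without overactivation replicate 4. cwn-2 differed by -0.62 (SE 0.25). lin-44, the Wnt of the tail, read 3.59, 3.61 and 3.10 in overactivation and 4.002, 4.19 and 4.67 in underactivation (-0.86, SE 0.41), with separated arrays that did not pass. The ligand mom-2 and mom-1, which encodes the Porcupine enzyme that lipidates Wnts, each differed by 0.38, but mom-1 by 0.036 without overactivation replicate 4. mig-14, which encodes the Wntless carrier that brings Wnts to the cell surface, read 9.34, 8.58 and 8.95 in overactivation and 7.36, 7.98 and 8.36 in underactivation (1.06, SE 0.55), also separated without passing.

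Among receptors, lin-17, a Frizzled gene, read 8.84, 8.37 and 8.85 in overactivation and 7.58, 6.91 and 7.74 in underactivation, against 6.91, 7.32 and 8.65 in N2. The overactivation arrays were tight and above all underactivation arrays (1.28, SE 0.43, adjusted p = 0.752 by limma), while its other probe set gave 0.88 with overlapping arrays. The other Frizzled genes ran the other way in sign, at -0.63 for mig-1, -0.53 for cfz-2 and -0.32 for mom-5, and none of them passed. With the array of most weight left out they were -0.15, -0.22 and -0.12 in the same order. The Ror gene cam-1 differed by -0.32 on its brighter probe set and by -1.41, with separated arrays, on a dimmer one. That dimmer probe set passed the unadjusted threshold but not the adjusted one (adjusted p = 0.336 by limma). lin-18, the Ryk gene, differed by 0.36, and by 0.18 without underactivation replicate 4.

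In the cytoplasm, pry-1, the Axin gene and a known Wnt target that feeds back on the pathway, read 6.57, 6.01 and 7.69 in overactivation and 4.14, 4.97 and 6.08 in underactivation, against 4.89, 4.21 and 5.62 in N2. Underactivation replicate 5 slightly exceeded overactivation replicate 3. The difference was 1.69 (SE 0.59, adjusted p = 0.776 by limma), and the other probe set of pry-1 gave 1.94 with separated arrays. apr-1, the APC gene, read 6.86, 6.47 and 7.95 in overactivation and 6.30, 6.28 and 5.60 in underactivation, against 6.36, 6.49 and 7.05 in N2 (1.03, SE 0.39), and the difference was 0.60 without overactivation replicate 4. The kinase gene kin-19 differed by 0.29 and on a further probe set by -0.19, and the Dishevelled gene dsh-1 had further probe sets of opposite sign (0.81 and -0.64). Both of those dsh-1 probe sets had separated arrays and passed the unadjusted threshold. On the brightest probe set, differences between -0.27 and 0.12, too small against their errors for a sign to be read, were found for the ligand gene egl-20 and for vps-35 of the retromer, which recycles the Wntless carrier. The same held for the Axin gene axl-1, the kinase genes gsk-3, lit-1 and mom-4, the Dishevelled genes dsh-2 and mig-5, the other β-catenin genes wrm-1, hmp-2 and sys-1, and vang-1, lin-23, tap-1 and cbp-1. Dimmer probe sets of some of these genes differed more. That of dsh-2 gave 0.52 with separated arrays and passed the unadjusted threshold, while those of lit-1 (-0.81 and -0.79), gsk-3 (-0.62) and cbp-1 (-0.89) had overlapping arrays.

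**Figure D4:**
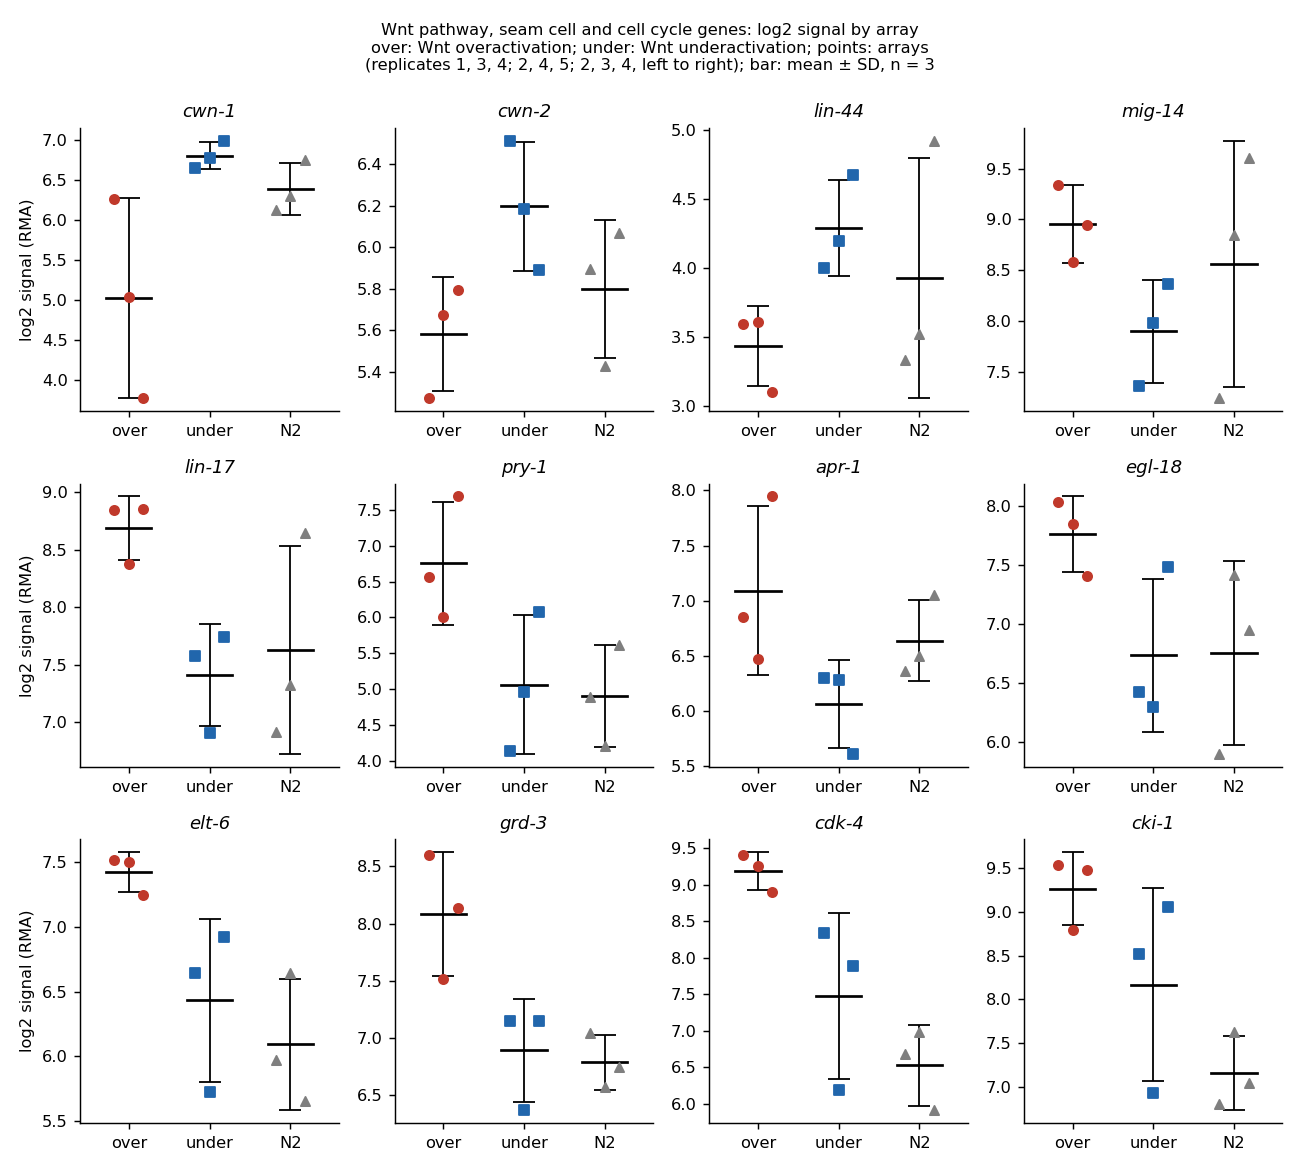
Log2 level in each array, overactivation, underactivation and N2, with group means and SD as bars, for Wnt pathway genes (cwn-1 to apr-1), seam cell genes (egl-18, elt-6 and grd-3) and cell cycle genes (cdk-4 and cki-1). lin-17 and grd-3 are separated between the conditions, while pry-1, egl-18 and cki-1 have overlapping arrays.

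Genes known from the seam cells were mostly higher in overactivation by sign. Of 17 measured, 15 had a positive difference, against 54.7% of all genes, and 6 were higher at an unadjusted p under 0.05 and 0 lower, against 2.86% and 3.05%, with a median of 0.62 beside 0.034 over all genes. All 6 (egl-18, elt-6, grd-3, grd-14, clc-6 and osm-11) were picked out by the study as targets from these same arrays, partly on this ratio, so their direction is not independent evidence. Without underactivation replicate 4 the count was 3 and the median 0.46, and without overactivation replicate 4 the count was 5 and the median 0.36. None passed the adjusted threshold. The GATA factor gene egl-18, which keeps seam cell fate, read 8.03, 7.84 and 7.41 in overactivation and 6.42, 6.29 and 7.48 in underactivation, against 5.89, 7.41 and 6.95 in N2 (1.03, SE 0.44). Its neighbour elt-6, of the same family, read 7.52, 7.51 and 7.25 in overactivation and 6.65, 5.73 and 6.93 in underactivation, against 5.97, 6.65 and 5.65 in N2 (0.99, SE 0.35), although a dimmer probe set of elt-6 gave -0.31, and the difference was 0.64 without underactivation replicate 4. One underactivation array of egl-18 reached into the overactivation range, and the elt-6 arrays were separated.

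The hedgehog-related genes grd-3 and grd-14, which encode secreted proteins, were higher as well. grd-3 read 8.60, 7.52 and 8.13 in overactivation and 7.15, 6.37 and 7.15 in underactivation, against 7.05, 6.57 and 6.75 in N2 (1.19, SE 0.32). The bright gene grd-14 read 11.28, 11.54 and 11.54 in overactivation and 10.86, 10.74 and 10.30 in underactivation, against 10.60, 10.68 and 10.28 in N2 (0.82, SE 0.21), while grd-10 differed by 0.62 and, without underactivation replicate 4, by 0.30. For the junction gene clc-6, claudin-like, the readings were 10.37, 10.66 and 10.34 in overactivation and 9.81, 8.88 and 9.81 in underactivation, against 9.16, 8.58 and 8.89 in N2 (0.96, SE 0.29). osm-11, a secreted co-ligand of Notch, was among the brightest, with 12.45, 11.96 and 12.10 in overactivation and 11.56, 10.88 and 11.76 in underactivation (0.77, SE 0.31, and 0.51 without underactivation replicate 4). Underactivation replicate 4 was the dimmest of the 6 tagged arrays for clc-6 and osm-11, and the arrays of the conditions were separated for all 4 of these genes. The Runx gene rnt-1 (0.95, and 0.39 without overactivation replicate 4) and the sterol-sensing domain gene che-14 (0.63, and 0.11 without underactivation replicate 4) missed the threshold, and ceh-16, the engrailed gene of the seam, was one of the pair with a difference below 0.

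Across the list, the median distance of the seam genes from their mean over the 6 tagged arrays was 0.17, 0.28 and 0.32 in overactivation, -0.18, -0.68 and -0.064 in underactivation and -0.44, -0.36 and -0.62 in N2. All overactivation arrays were thus above all underactivation and N2 arrays on this measure, and underactivation replicate 4 was the lowest of the 9. Of the 17 genes, at least 5 stood in the lists that the study drew from these arrays, and it also picked out egl-18 and elt-6. This separation is therefore not independent evidence, and N2 also lacked the tag.

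Of 25 vulval genes measured, 19 were positive (against 54.7% of all genes), 4 were higher at an unadjusted p under 0.05 and 0 lower (against 2.86% and 3.05% of all genes), osm-11 among them, and the median was 0.51, but the count ran from 1, with a median of 0.25, without underactivation replicate 4 to 7 without underactivation replicate 5. At least 4 of the 25 stood in the study's lists from these arrays, and 1 of these, osm-11, was past the threshold. The direction of listed genes is not independent evidence. hlh-2, the E protein gene, read 5.26, 4.96 and 5.63 in overactivation and 4.12, 3.98 and 4.43 in underactivation (1.11, SE 0.23). lin-29, a zinc finger gene that ends the larval programme of the epidermis, read 10.28, 10.40 and 10.59 in overactivation and 10.19, 9.03 and 9.50 in underactivation (0.85, SE 0.28). vab-23 read 6.60, 6.12 and 7.91 in overactivation and 5.38, 5.63 and 5.52 in underactivation (1.37, SE 0.57), and its difference was 0.85 without overactivation replicate 4. For hlh-2, lin-29 and vab-23 the arrays of the conditions were separated. The Hox gene lin-39, which gives the VPCs their competence and is regulated by Wnt signaling there, read 6.97, 7.33 and 7.70 in overactivation and 6.71, 6.43 and 7.03 in underactivation (0.61, SE 0.29), without passing. The ETS factor gene lin-1, listed by the study from these arrays, differed by 0.88, and by 0.34 without underactivation replicate 4.

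Of 14 genes known as Wnt-responsive from earlier work, which include pry-1, egl-18, elt-6 and lin-39, 12 were positive and 3 were higher at an unadjusted p under 0.05 and 0 lower, against 2.86% and 3.05% of all genes, with a median of 0.54 and of 0.36 without underactivation replicate 4. The 3 were pry-1 and the GATA pair above, all picked by the study as targets from these arrays. The Hox gene mab-5, a target in the migrating Q neuroblast and also listed by the study, read 7.58, 7.996 and 7.84 in overactivation and 7.26, 5.63 and 7.95 in underactivation (0.86, SE 0.50). That difference was 0.20 without underactivation replicate 4. psa-3, a Meis-type homeobox gene, differed by 1.05, and by 0.45 without overactivation replicate 4. Without underactivation replicate 2 the count at the threshold was 1 and it reached 6 with another array left out.

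Of 15 genes of the G1 phase, 1 was higher at an unadjusted p under 0.05 and 1 lower, with 2 and 0 without underactivation replicate 4. cdk-4, the kinase that drives cells out of G1, read 9.40, 9.25 and 8.90 in overactivation and 8.33, 6.19 and 7.89 in underactivation, against 6.69, 6.98 and 5.92 in N2 (1.71, SE 0.52, adjusted p = 0.656 by limma). Underactivation replicate 4 was low, and the difference was 1.07 without it. The kinase inhibitor gene cki-1, which holds cells in G1, read 9.53, 8.79 and 9.48 in overactivation and 8.51, 6.93 and 9.05 in underactivation (1.10, SE 0.51), with overlapping arrays, and gave 0.48 without underactivation replicate 4. Both cdk-4 and cki-1 were listed by the study from these arrays, partly on this ratio, so their direction is not independent evidence. The phosphatase gene cdc-25.1 differed by -0.70. In the EGF-Ras pathway, which acts with Wnt signaling in the VPCs, 2 of 21 were higher and 1 lower, namely let-60 and the PDZ protein gene lin-2 (0.93) and its partner lin-10 (-0.89). The higher count ran from 0 without underactivation replicate 4 to 4 without underactivation replicate 5, and the counts were 1 and 0 when the probe sets of a gene were averaged. Further probe sets had overlapping arrays, at 0.15 for lin-2 and 0.16 for lin-10, and lin-2 differed by 0.44 without overactivation replicate 4. Of 18 Notch pathway genes, osm-11 alone passed the unadjusted threshold, and 0 passed it without underactivation replicate 4. Among all genes 2.86% were higher and 3.05% lower.

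Cuticle collagens lay mostly on the higher side. Of 147 measured, 126 had a positive difference (85.7%, against 54.7% of all genes), 18 were higher at an unadjusted p under 0.05 and 1 lower (12.2% and 0.680%, against 2.86% and 3.05%), and 35 had separated arrays upward and 1 downward, against 6.82% and 5.26% of all genes. Their median was 0.29, and 0.17 without overactivation replicate 3. The higher count ran from 10 without underactivation replicate 4 to 28 without N2 replicate 4. Of the 19, 5 also stood in those of the study's lists from these arrays that were at hand. The study's full target list, in which it reports many collagens, was not among the sources used. Others of the 19 may therefore stand on it, and the direction of the collagens is not independent evidence. Beside col-38 and col-49, the differences were 1.81 (SE 0.30) for col-77, 1.03 (SE 0.30) for col-63 and 0.94 for col-60. bli-1, a collagen of the struts of the adult cuticle, read 5.65, 7.49 and 5.17 in overactivation and 4.64, 4.10 and 4.50 in underactivation (1.69, SE 0.53), and the difference was 0.99 without overactivation replicate 3. The overactivation arrays of the collagens were not alike: the median distance from the tagged mean was 0.35 in replicate 3 but 0.084 in replicate 4 and -0.00075 in replicate 1, below the 0.12 of underactivation replicate 2.

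Other structural groups were small. Of 12 tubulin genes, 4 were higher at an unadjusted p under 0.05 and 0 lower, against 2.86% and 3.05% of all genes, with 4 to 5 when an array was left out and a median of 0.35. tbb-6 read 6.05, 5.82 and 5.66 in overactivation and 4.29, 4.02 and 3.73 in underactivation, against 4.10, 4.60 and 3.89 in N2 (1.83, SE 0.24, adjusted p = 0.0786 by limma). tba-7 (1.17), tba-8 (1.08) and the bright gene tbb-2 (0.68) were the others, all with separated arrays. The study had listed tbb-6 from these arrays, partly on this ratio, so its direction is not independent evidence. Of 34 genes of molting and the apical matrix, mlt-7 (0.94), a peroxidase gene, and let-653 (0.88), a zona pellucida gene, passed upward and 0 downward (5.88% and 0%, median 0.22). The higher count ran from 0 to 4 when an array was left out, and without underactivation replicate 4 the counts were 0 and 1 and the differences 0.48 and 0.59, and without overactivation replicate 3 the median was 0.083. Cuticulin-type genes of the cut, cutl and noah classes counted 3 higher, among them cut-4 (1.67), and 1 lower, cutl-18 (-1.20), of 36, and 1 higher without overactivation replicate 3. Of 26 histone genes 22 were positive and 1, his-39 (0.94), passed. Histone genes are near-identical in sequence, so their probe sets may read several of them together. The 62 ribosomal protein genes had 0 past the unadjusted threshold in either direction and a median of -0.0059.

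Enzymes of detoxification were more often on the lower side. Of 180 genes for glucuronosyltransferases (UGT), cytochromes P450 and glutathione S-transferases (GST), which modify foreign compounds for removal, 3 were higher at an unadjusted p under 0.05 (1.67%, against 2.86% of all genes) and 18 lower (against 3.05%), with a median of -0.15. Over all single-array omissions the lower count ran from 12 to 21, and the median from -0.25 without overactivation replicate 1 to -0.053 without underactivation replicate 2. A row of 3 adjacent GST genes on chromosome IV, gst-3 (-1.28), gst-2 (-1.14) and gst-4 (-1.22), was lower with separated arrays. gst-4, widely used as a reporter of oxidative stress, read 4.29, 4.46 and 4.14 in overactivation and 5.05, 5.78 and 5.72 in underactivation, against 4.69, 5.78 and 4.89 in N2. ugt-33 (-1.01) and ugt-52 (-1.20) were lower, and ugt-8 (1.24), listed by the study from these arrays, was higher. Without underactivation replicate 5 the differences were -0.68 for gst-2 and -0.80 for ugt-52. Paralogs in these families share sequence, and probe sets may not tell them apart.

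The F-box and MATH domain genes, large families of ubiquitin ligase adaptors, had 4 higher and 26 lower of 395 at an unadjusted p under 0.05 (1.01% and 6.58%, against 2.86% and 3.05% of all genes). Their median was 0.013, and the counts of separated arrays were 20 upward and 29 downward (5.06% and 7.34%, against 6.82% and 5.26%). Lower counts ran from 18 to 29 when an array was left out. Members included fbxa-6 (-1.33), fbxa-135 (-1.44), fbxa-182 (-0.82) and bath-25 (-1.06) beside fbxa-158, and fbxa-116 was the exception of largest size. Neighbouring lysozyme genes of the invertebrate type, ilys-3 (-1.85) and ilys-2 (-1.46), were also lower, and were picked out after their values were seen.

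Neuropeptide precursors counted 3 higher and 7 lower of 106 (2.83% and 6.60%, against 2.86% and 3.05% of all genes), with a median of -0.11, and the lower count ran from 3 without overactivation replicate 3 to 14. Of the insulin-like genes above, this list held ins-7 but not daf-28. nlp-51 (-1.46), nlp-53 (-1.26), flp-18 (-1.10) and flp-19 (-0.73) were lower, and ins-7 and flp-14 (0.51) higher. Of 260 nuclear hormone receptor genes 6 were higher and 8 lower (2.31% and 3.08%), shares near those of all genes. The higher count was 1 without underactivation replicate 4, and the lower count was 2 without underactivation replicate 2. nhr-155 read 6.16, 5.26 and 5.63 in overactivation and 4.01, 2.90 and 4.01 in underactivation, against 3.59, 3.68 and 3.32 in N2 (2.04, SE 0.35, adjusted p = 0.212 by limma). Homeobox genes of the ceh class counted 3 higher and 2 lower of 60 (5.00% and 3.33%), with 0 and 1 without underactivation replicate 4. The LIM gene ceh-14 differed by 1.68, and by 0.80 without overactivation replicate 4, and the Otx-type gene ceh-37 by -1.27. Transthyretin-related genes counted 3 higher and 5 lower of 40 (7.50% and 12.5%), among them ttr-56 (1.75) and ttr-28 (-1.84). Their higher count ran from 1 without underactivation replicate 4 to 5 without N2 replicate 2, and the lower count from 3 to 9, the highest without overactivation replicate 1. Of 21 Argonaute genes, which carry small RNAs, 2 were higher, vsra-1 (6.86, 9.02 and 8.82 in overactivation and 6.12, 6.12 and 5.90 in underactivation, 2.19) and the microRNA Argonaute gene alg-1 (0.51, and 0.29 without overactivation replicate 4), and 0 lower. Without either of overactivation replicate 4 and underactivation replicate 4 the count was 1. In each of the neuropeptide, transthyretin-related and Argonaute lists, 1 gene past the threshold also stood in the study's lists from these arrays. The direction of those genes is not independent evidence.

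Markers of tissues outside the tag were read beside these lists. Body wall muscle had 0 higher and 1 lower of 30 (median -0.13), pan-neuronal genes 0 and 3 of 36 (-0.071), intestine 0 and 3 of 31 (-0.29), pharynx 0 and 0 of 23 (0.22) and germline 0 and 2 of 36 (-0.00061), against 2.86% higher and 3.05% lower of all genes. Their median distances from the tagged mean, for overactivation replicates 1, 3 and 4 and underactivation replicates 2, 4 and 5 in turn, were 0.20, -0.31 and -0.14 against -0.12, 0.23 and 0.095 for muscle, and 0.32, -0.15 and -0.45 against -0.41, 0.63 and 0.28 for intestine. The 2 conditions overlapped in both lists. N2 lay above all tagged arrays for muscle, between 0.41 and 0.57, and overlapped them for intestine, between 0.37 and 0.93 against the 0.63 of underactivation replicate 4. These values moved with single arrays in both directions. The medians ran from -0.25 to -0.033 for muscle, -0.57 to 0.0093 for intestine and -0.079 to 0.37 for pharynx, and the lower counts from 1 to 5 for intestine, 1 to 3 for pan-neuronal genes and 0 to 6 for germline. Intestine was lowest without underactivation replicate 2 and highest without overactivation replicate 4. The muscle myosin gene myo-3 read 9.10, 8.31 and 8.39 in overactivation and 9.38, 10.39 and 9.39 in underactivation, against 10.24, 10.63 and 10.90 in N2 (-1.12). The gut esterase gene ges-1 read 5.38, 5.22 and 4.32 in overactivation and 6.20, 6.86 and 6.66 in underactivation, against 7.04, 6.30 and 6.70 in N2 (-1.60), and the lower genes also included cpr-4 (-1.57), a cathepsin B-like gene, elt-7 (-1.11), an intestinal GATA factor gene, and egl-3 (-0.53) and egl-21 (-1.29, and -0.69 without underactivation replicate 4), which process neuropeptides. The part of such RNA in the detoxification and neuropeptide counts was not tested.

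Heat shock genes were read because a heat shock, which N2 also received, started both transgenes. Of 23, 6 had a positive difference (26.1%, against 54.7% of all genes), and 0 were higher at an unadjusted p under 0.05 and 1 was lower (against 2.86% and 3.05%), with 1 to 3 lower when an array was left out. The median was -0.21, and it ran from -0.36 without underactivation replicate 2 to 0.057 without underactivation replicate 4. hsp-70 varied widely, with 5.77, 4.73 and 8.13 in overactivation, 8.71, 10.05 and 6.92 in underactivation and 5.86, 10.19 and 11.16 in N2. The endogenous gene of the promoter used, hsp-16.2, differed by -0.37, and by -0.045 without overactivation replicate 1. hsp-70 and hsp-16.2 were picked out after their values were seen.

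**Figure D5:**
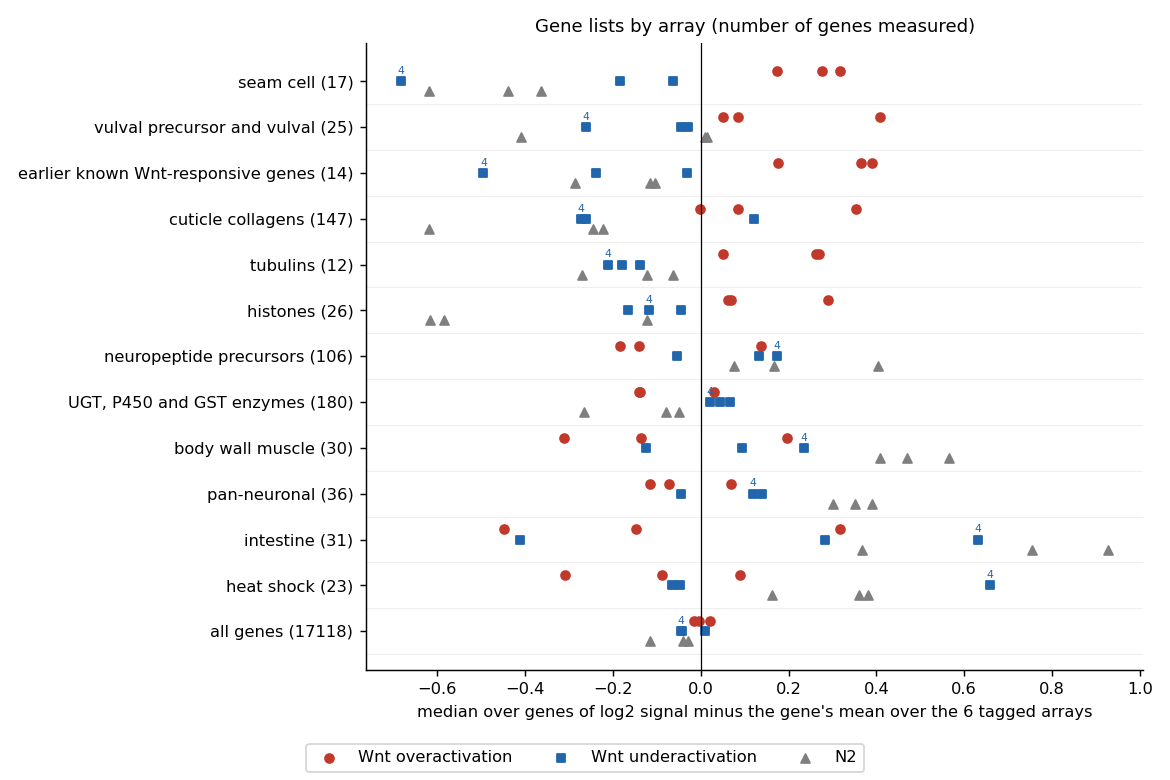
For each gene list and for all genes, the median over the list of each gene's log2 distance from its mean over the 6 tagged arrays, 1 point per array, for overactivation, underactivation (replicate 4 marked 4) and N2. Seam cell genes are separated between the conditions, and underactivation replicate 4 is the lowest array for them at -0.68 and the highest of the tagged arrays for intestine at 0.63. The seam list includes genes that the study picked from these arrays, so its separation is not independent evidence.

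The N2 level was then set beside each of these genes. Of the 385 genes higher in overactivation with separated arrays and an unadjusted p under 0.05, the N2 mean was nearer to underactivation for 301 and nearer to overactivation for 84. It was below both conditions for 157, between them for 195 and above both for 33. Of the 425 lower genes, N2 was nearer to underactivation for 239 and nearer to overactivation for 186, with 75 below both, 206 between and 144 above both. These counts were not made over all genes. Over all probe sets, N2 arrays correlated with underactivation at 0.936 to 0.973 and with overactivation at 0.928 to 0.940. A nearness of N2 to underactivation is therefore not read as particular to these genes. N2 differs from both strains in the tag and the insertions as well as in Wnt signaling, and these cannot be told apart. The higher genes had a median difference of 0.83 and the lower ones of -1.01, and 90 of the higher and 46 of the lower genes were in the dimmest 33.3% of probe sets.

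Further probe sets of the same genes were not used in the choice of genes. They read the same RNA on the same arrays, so they bear on the probe sets and not on the spread between samples. For 82 of the higher genes there were 101 further probe sets, of which 82 had the same sign and 20 were separated the same way. For 61 of the lower genes there were 74, of which 59 had the same sign and 20 were separated the same way. In 0 cases was a further probe set separated the other way. Among all genes 54.7% had a positive difference, and 6.82% were separated upward and 5.26% downward. The shares over all further probe sets were not counted.

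By position, the 6 chromosomes held similar shares of these genes, 1.91% to 2.55% higher and 1.70% to 2.96% lower. Of 17070 pairs of adjacent measured genes, 52 had both members among them, 17 pairs both higher, 24 both lower and 11 opposite. The number to be expected without any clustering was not worked out, so no clustering is read from these pairs. Besides srw-92 with srw-93 and the GST genes, clc-6 of the seam list stood beside K10D6.3 (0.96 and 2.02), both listed by the study from these arrays. Also adjacent were pals-38 and pals-37 (-1.87 and -1.38). Among the opposite pairs were pals-5 and pals-6.

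Genes that the study listed from these arrays had been selected partly on their ratio between the same 2 conditions, so their direction is not independent evidence. The study's full target list was not among the sources used, so other genes named above may stand on it too. Among the 44 measured genes the study named as targets for further discussion, 20 were higher at an unadjusted p under 0.05 and 0 lower, against 2.86% and 3.05% of all genes, with a median of 0.83. The higher count ran from 12, without overactivation replicate 4 or underactivation replicate 4, to 24 without underactivation replicate 5, and the median was 0.61 without underactivation replicate 4. The casein kinase 2 subunit gene kin-10 read 9.85, 9.27 and 9.39 in overactivation and 9.31, 8.51 and 9.08 in underactivation, against 9.24, 8.73 and 8.14 in N2 (0.54, SE 0.33) with overlapping arrays. The p21-activated kinase gene pak-1 read 9.92, 9.92 and 10.03 in overactivation and 9.63, 8.84 and 9.79 in underactivation, against 9.50, 8.61 and 9.07 in N2 (0.54, SE 0.30) with separated arrays, and neither passed. Both further probe sets of pak-1 were of the other sign with overlapping arrays (-0.25 and -0.043), and the mean over its probe sets gave 0.081. Without underactivation replicate 4 these differences were 0.31 for kin-10 and 0.25 for pak-1.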

How the data were processed

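Messages bound to FLAG-tagged PAB-1 were measured on 1-colour Affymetrix C. elegans arrays in 9 samples, 3 for each of 3 groups, which the methods call biological triplicates. The deposited values were log2 expression after RMA in Partek by the authors, whose versions are not given in the sources used here, nor is the log base in the file. They were used as deposited. The labels speak of cRNA from total RNA, and the methods of amplified cDNA. The 77 array control probe sets were left out. Of 22548 others, 20766 had 1 gene in the platform annotation, 887 several and 895 none, and 20701 had their symbol updated by gene ID through a RefSeq table of assembly WBcel235. The probe set with the highest mean stood for each of 17118 genes. Unused columns of sample values numbered 0.

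A linear model over 3 groups was fitted with limma 3.58.1 in R 4.3.3 (6 residual and 2.71 prior degrees of freedom), two-sided, with Benjamini-Hochberg adjustment over all probe sets at 0.05, and was tested on simulated data. No count table and no detection call was used, so depth is unknown and levels were not tested against background. The number of arrays limits the precision. Members and lists were chosen with earlier results of these data known, and lists are described by counts and medians. The genes named were those past the adjusted p of 0.05, the 15 largest differences and 6 smallest p-values in each direction among genes with separated arrays and an unadjusted p under 0.05, the genes of the insertions, the Wnt pathway list, up to 5 genes of each other list by p-value and genes named by the study. ZK792.7, bli-1, flp-14, grd-10, gst-2, gst-3, hsp-16.2, hsp-70, ilys-2, ilys-3, pals-5, pals-37 and rnt-1 lay outside that rule and were chosen after their values were seen. Alternatives were quantile normalization, centring, leaving out the dimmest 33.3% of probe sets, an ordinary linear model as in the ANOVA of the methods, trend and robust moderation, the 6 tagged arrays alone, array weights, the mean over probe sets, the replicate number as a block, and leaving out each array. Residuals of arrays of different groups with the same number correlated at -0.088 to 0.23 over 5 pairs, and those with other numbers at -0.20 to 0.21 over 22, so the numbers were not taken to pair the arrays. The plots used matplotlib 3.10.9 under Python 3.11.15.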

Additional observations from a re-analysis of the deposited data

How the results depend on the processing

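The number of genes past the adjusted p of 0.05 was sensitive to the fit. Against 1 higher and 0 lower, it was 6 and 0 after quantile normalization, 3 and 0 with centred arrays, 5 and 2 without the dimmest 33.3% of probe sets, 9 and 2 with trend and robust moderation, 10 and 2 with array weights, 6 and 0 with the mean over probe sets, and 0 and 0 with the ordinary linear model and with the 6 tagged arrays alone. With an array left out it was 0 to 7 higher, the 7 without overactivation replicate 1, and 0 to 0 lower. The random replicate block (correlation 0.063) left it at 1 and 0, and gave 526 higher genes and 553 lower ones at the unadjusted threshold. For dod-23, the block gave 3.13 (adjusted p = 0.0145 by limma), while the adjusted p was 0.144 with the ordinary model and 0.145 with the 6 tagged arrays, and stayed under 0.05 in the other 7 alternatives that kept all arrays of the fit. At an unadjusted p under 0.05, 302 genes were higher without those dim probe sets, and 301 to 512 higher and 417 to 621 lower with an array left out. Without underactivation replicate 4, 235 of the 489 higher and 296 of the 522 lower genes remained. Genes with separated arrays numbered 657 higher without those dim probe sets and 2246 higher with centred arrays, and 1167 to 2464 higher and 900 to 1757 lower with an array left out, when fewer arrays need to separate. At least 1.5-fold counts ran from 867 to 1276 higher and 1248 to 1611 lower with an array left out. Of 131 genes named with a difference, 130 kept its sign in all 18 alternatives. The exception was unc-30, at 0.29 without overactivation replicate 3 and 0.12 without underactivation replicate 5, and from -0.59 to 0.29 over the omissions. Medians of 20 of the 43 lists, most of them near 0, changed sign in some alternative. The cause of these changes was not tested.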
